A study of Mus musculus with 12 samples.

Results

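The genes described here encode heat shock proteins and the chaperones that work with them: 41 genes, chosen by name, of 56884 in the files. The choice was made with earlier results of these data known, so shares of the family set beside those of all genes are descriptive only. They comprised 11 Hsp70 and Hsp110 proteins, 4 Hsp90 proteins, the mitochondrial chaperonin pair Hspd1 and Hspe1, 6 small heat shock proteins, 7 J-domain proteins, 8 cochaperones, the transcription factors Hsf1 and Hsf2, and clusterin. RNA came from mouse tumours grown from TS/A cells, a mammary carcinoma line, together with cancer-associated fibroblasts, and the labels give all of them the genotype WT. The 12 libraries formed 4 groups of 3: radiotherapy alone (RT), muFAP-4-1BBL alone (FAP41BBL), radiotherapy and muFAP-4-1BBL (RT_FAP41BBL), and tumours whose treatment label is None, called vehicle in the series' design (control). The agent muFAP-4-1BBL is named for a ligand of 4-1BB, a costimulatory receptor of T cells, and for FAP, a protease on the surface of activated fibroblasts. The labels give no dose, time, age or animal. Whether the libraries of a group came from different animals is not stated, so a p-value covers only the spread between the samples sequenced, and part of that may be technical.

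Chaperones bind proteins that are not, or no longer, folded. Hsp70 proteins take up substrates brought by J-domain proteins, Hsp110 proteins recharge Hsp70 with ATP, and Hsp90 finishes the folding of kinases and receptors with the help of cochaperones. Small heat shock proteins hold unfolded proteins without using ATP. When unfolded proteins build up, Hsf1 binds heat shock elements in promoters and induces many of these genes, whereas chaperones of the endoplasmic reticulum answer to a separate pathway, the unfolded protein response.

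Promoter sequence was looked at for these binding motifs in RefSeq windows of GRCm38.p6, from 250 bases before to 50 after a start site, which were at hand for 31 of the 41 genes. A heat shock element was taken as 3 units that alternate between GAA and TTC, with 2 bases between units, on either strand. It was found in 5 of the 31 genes (16.1%), against 0.662% of all 27025 genes with such a window. The search allowed no mismatch, and Hspa1a and Hspa1b matched only a shorter form of 2 facing units, found in 17.0% of all genes. The stretches are shown because they separate genes of the family that match the full pattern exactly from those that do not. Capitals mark the motif, or overlapping copies of it.
Hsph1, chr5:149636280-149636308, minus strand: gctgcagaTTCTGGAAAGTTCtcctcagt
Hspd1, chr1:55088044-55088091, minus strand: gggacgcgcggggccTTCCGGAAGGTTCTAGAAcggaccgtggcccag
Hspe1, chr1:55088044-55088091, plus strand: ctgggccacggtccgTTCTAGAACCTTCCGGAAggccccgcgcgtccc
Chordc1, chr9:18292260-18292288, plus strand: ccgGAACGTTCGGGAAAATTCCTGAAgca
Dnajb6, chr5:29735837-29735879, plus strand: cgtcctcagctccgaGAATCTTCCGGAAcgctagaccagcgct
Hspd1 and Hspe1 lie head to head, and their lines are the same stretch read on opposite strands. A second motif, the endoplasmic reticulum stress element, was taken as CCAAT, 9 bases and CCACG on either strand. It was found in Hspa5 and Hsp90b1, which encode the Hsp70 and Hsp90 of the endoplasmic reticulum (6.5% of the 31 genes, against 0.137% of all genes). In the Hsp90b1 stretch there is 1 copy on each strand.
Hspa5, chr2:34772010-34772058, plus strand: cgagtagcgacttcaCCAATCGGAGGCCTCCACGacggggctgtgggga
Hsp90b1, chr10:86705518-86705671, minus strand: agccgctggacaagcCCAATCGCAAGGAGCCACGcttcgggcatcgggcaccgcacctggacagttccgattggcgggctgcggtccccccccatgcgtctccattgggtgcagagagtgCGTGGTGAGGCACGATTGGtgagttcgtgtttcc
A match describes these letters only and is not a measured binding site.

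Counts are given as CPM, counts scaled to a common library size, and the 3 values of a group are in the order of replicates 1, 2 and 3. Library totals lay between 34076477 and 42067481 counts. The family took 1.0498% to 1.6218% of all counts, and all 41 genes passed the filter on low counts. Of the marker lists, skeletal muscle transcripts differed most: the summed level of 21 markers was 6749 to 15140 CPM in RT, 85.0 to 2336 in FAP41BBL, 535 to 1054 in RT_FAP41BBL and 63.8 to 693 in control. No muscle marker was at 0 in the treated groups, and at most 1 in a control library. Fibroblast markers were abundant in every library, whereas among the epithelial markers Krt8 was at 231 to 437 CPM and Epcam at 8.18 CPM or less in every library.

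Levels between genes can be compared per kilobase of exon. In control tumours Hsp90ab1, the constitutive cytosolic Hsp90, stood first at 904 ± 19.95 CPM per kb (SD, n = 3). The constitutive Hsp70 gene Hspa8 followed at 345 ± 46.9, Hsp90b1 at 290.1 ± 29.1 and Hspa5 at 286 ± 26.9 CPM per kb, and the ranges of these 3 over the control libraries overlapped. At the low end were Hspb7 at 3.44 ± 3.02, Hspa2 at 2.84 ± 0.412, Hsf2 at 2.21 ± 0.184 and the stress-inducible Hspa1a at 1.55 ± 0.341 CPM per kb. Hspa1a shares 47.1% of the 100-base stretches of its transcript with Hspa1b, so its level and place are uncertain.

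RT against control asked what radiotherapy alone changed. In tumours given RT alone 11 of 41 genes of the family rose and none fell by edgeR's quasi-likelihood test with Benjamini-Hochberg adjustment over all 17757 genes at 0.05. Over all genes tested, 6.57% were called higher and 3.05% lower. The rises were largest for clusterin, the small heat shock genes Hspb6, Cryab and Hspb8, and the Hsp110 gene Hsph1. The fitted log2 change was above 0 for 40 of the 41 genes, with a median of 0.37 against -0.002 over all genes, and 24 had an unadjusted p under 0.05. In 23 of the 41 genes (56.1%) every RT library lay above every control library, against 14.9% of all genes. In bulk tumour RNA, fewer cells of a type and less RNA per cell cannot be told apart, and the same holds for more of either.

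**Figure D1:**
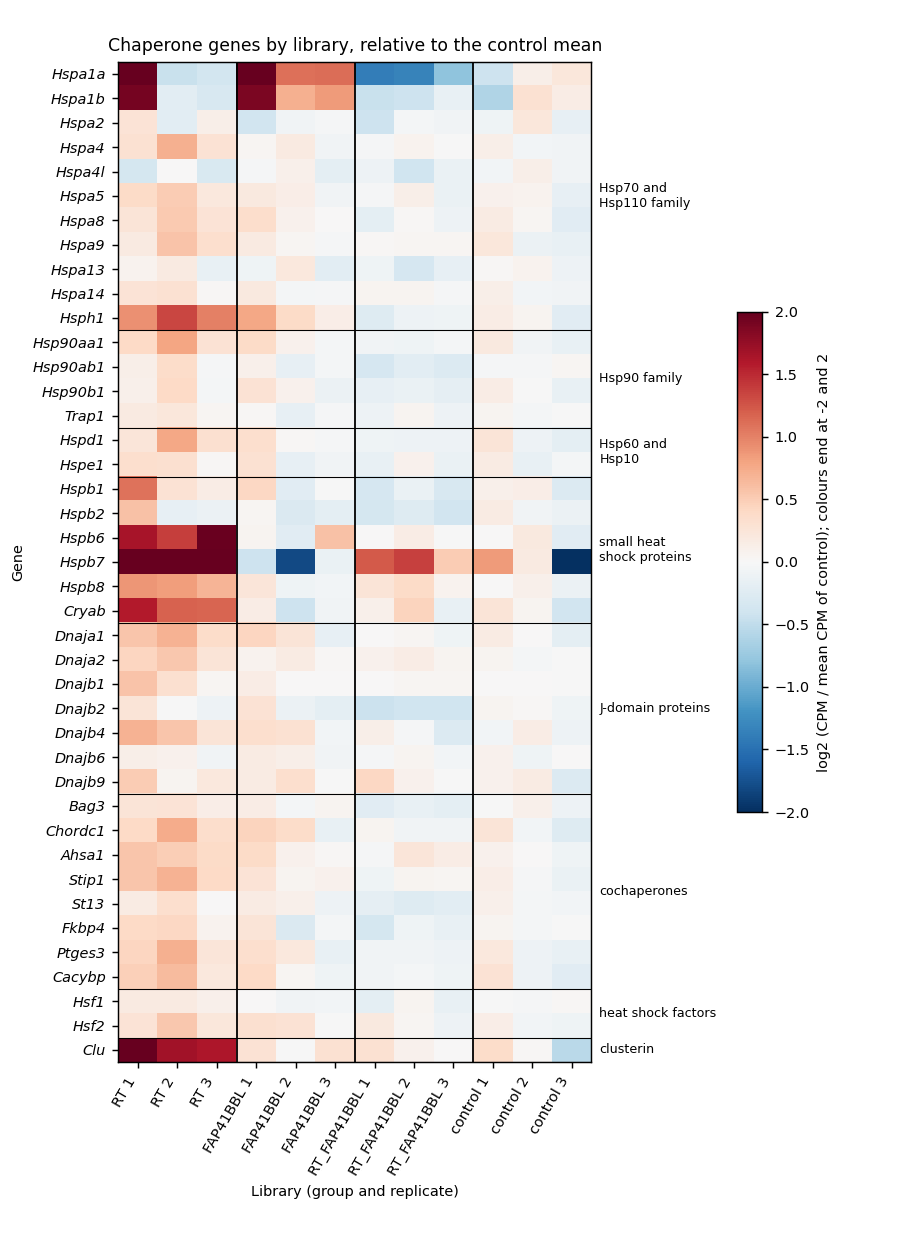
Heat map of 41 chaperone genes (rows, by class) in 12 libraries (columns, by group), coloured by the log2 ratio of CPM to the mean of the control libraries, with colours ending at -2 and 2. The 3 RT columns are red over most rows, with Clu, Hspb6, Hspb7, Cryab and Hsph1 among the deepest in all 3, while Hspa1a and Hspa1b are redder in replicate 1 than in replicates 2 and 3, in RT and in FAP41BBL alike.

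RT_FAP41BBL against RT asked what the agent changed in irradiated tumours. Here 11 of the 41 genes fell and none rose, against 2.4% of all genes called lower and 3.36% called higher. The median log2 change was -0.445, 40 of 41 genes lay below 0, and 32 had an unadjusted p under 0.05. In 31 of the 41 genes (75.6%) every RT_FAP41BBL library lay below every RT library, against 13.4% of all genes. Markers of immune cells also stood apart in this comparison. The mean log2 CPM of 10 T cell markers was 3.13 to 3.59 in RT_FAP41BBL and 1.75 to 2.68 in RT, and the summed level of 11 macrophage and monocyte markers 5306 to 6806 CPM in RT_FAP41BBL and 2831 to 4724 in RT. None of either list was at 0 in a library, 5 of the T cell and 6 of the macrophage markers rose and none fell, and their part in the falls of the family was not tested. This comparison and RT against control share the RT libraries, so they are not independent, and their values are given side by side.

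**Figure D2:**
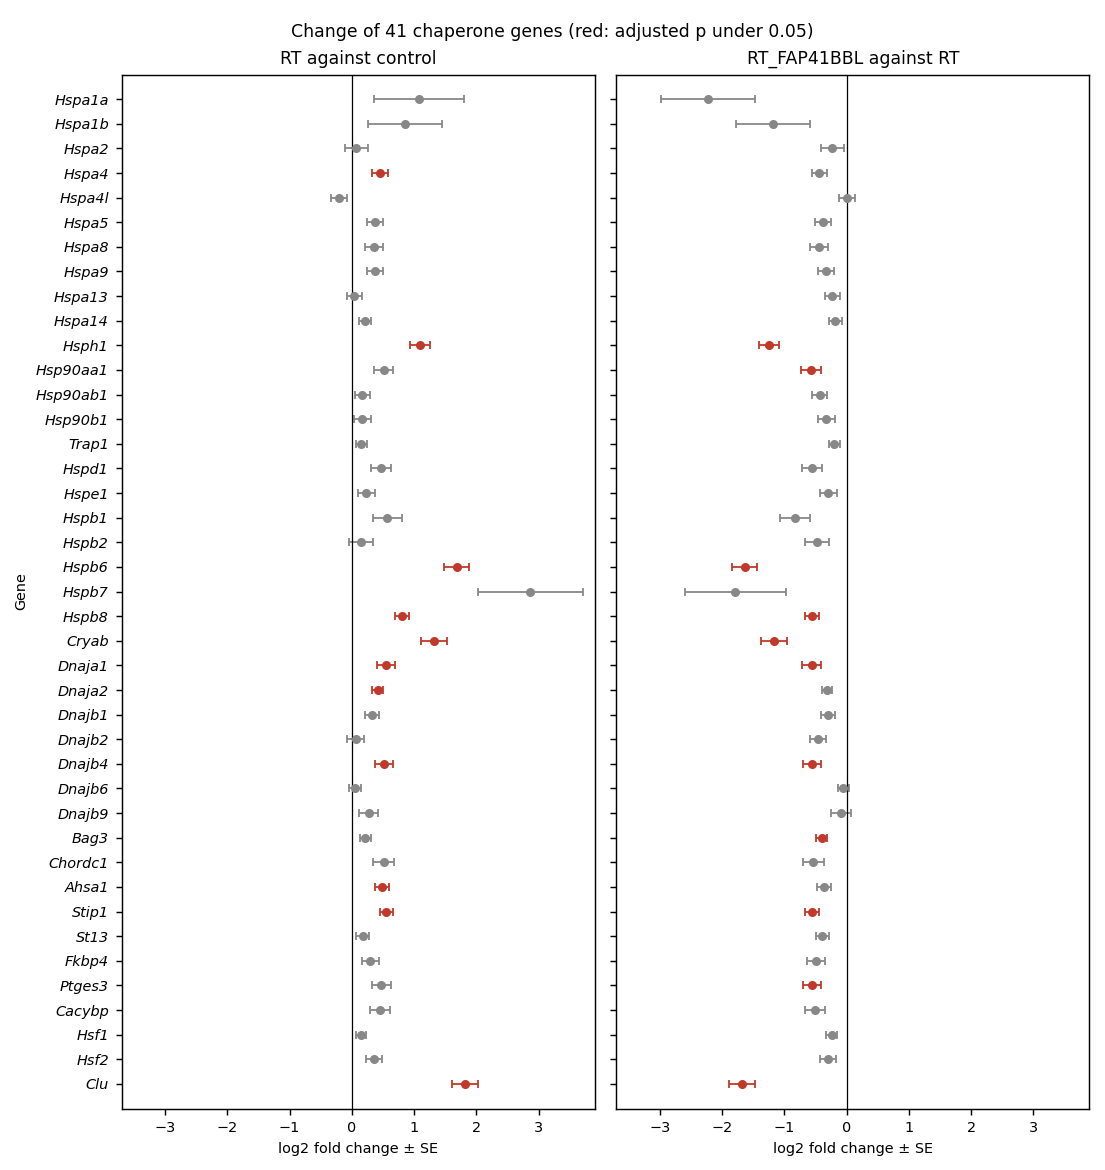
Fitted log2 fold change with its SE (horizontal bar) for 41 chaperone genes, in RT against control (left) and RT_FAP41BBL against RT (right), with red marking an adjusted p under 0.05. On the left all points except Hspa4l lie above 0. On the right all except Hspa4l lie below 0, and the RT libraries enter both panels.

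Of the 11 Hsp70 and Hsp110 genes, 2 rose in RT against control and 1 fell in RT_FAP41BBL against RT. Hsph1, the Hsp110 that serves Hsp70 as a nucleotide exchange factor (ENSMUSG00000029657.16, GRCm39 chr5:149537752-149559841), had 177, 236 and 188 CPM in RT, 159.7, 122 and 103 in FAP41BBL, 78.5, 86.9 and 87.9 in RT_FAP41BBL and 104, 97.0 and 79.8 in control. All 3 RT libraries lay above the other 9, and RT_FAP41BBL overlapped control. Its log2 change was 1.10 ± 0.16 in RT against control (SE, adjusted p = 0.00223) and -1.25 ± 0.16 in RT_FAP41BBL against RT (adjusted p = 0.00377). It is the 1 gene among the 11 that rose whose promoter window held the full heat shock element shown above. Clu and Cryab, also among the 11, had no window at hand. The shorter form of 2 facing units was also in the windows of Dnaja1, Dnajb4, Hspb6 and Hspb8, which rose too. Ahsa1, Dnaja2, Hspa4 and Stip1 held neither form. That shorter form was in 45.2% of the family's genes with a window and in 17.0% of all genes. The match in Hsph1 lies after the start site. The other carriers of the full element, Hspd1, Hspe1, Chordc1 and Dnajb6, did not pass in RT against control. A part of either form in the rises was not tested. Hspa4, another exchange factor of the Hsp110 group, had 355, 471 and 351 CPM in RT, 295, 323 and 274 in FAP41BBL, 281, 300.4 and 286 in RT_FAP41BBL and 311, 275 and 274 in control. RT again lay above all other libraries, with replicate 2 the highest. The log2 change of Hspa4 was 0.45 ± 0.12 in RT against control (adjusted p = 0.0373) and -0.44 ± 0.12 in RT_FAP41BBL against RT (adjusted p = 0.0549).

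The abundant housekeeping Hsp70 genes had smaller fitted changes. Hspa8, which folds newly made proteins in the cytosol, had 1785, 2132 and 1787 CPM in RT, 1892, 1578 and 1497 in FAP41BBL, 1298, 1504 and 1388 in RT_FAP41BBL and 1665, 1524 and 1267 in control. RT stood above control and above RT_FAP41BBL in every library but overlapped FAP41BBL, and the log2 change of 0.36 ± 0.14 in RT against control did not pass (adjusted p = 0.129). Hspa5, or BiP, the Hsp70 of the endoplasmic reticulum, had 1574, 1715 and 1395 CPM in RT, 1389, 1324 and 1149 in FAP41BBL, 1195, 1308 and 1105 in RT_FAP41BBL and 1280.0, 1269 and 1078 in control. The lowest RT library was just above the highest FAP41BBL library, and the change of 0.37 ± 0.12 did not pass either (adjusted p = 0.0871). The remaining genes of this class, Hspa2, Hspa4l, Hspa9, Hspa13 and Hspa14, had log2 changes between -0.21 and 0.37 in RT against control, none past the test.

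The inducible Hsp70 genes Hspa1a and Hspa1b are the classical targets of Hsf1 in other settings. Hspa1a had 22.2, 3.40 and 3.56 CPM in RT, 28.7, 9.86 and 9.98 in FAP41BBL, 1.76, 1.82 and 2.63 in RT_FAP41BBL and 3.45, 4.99 and 5.35 in control. Replicate 1 of RT and replicate 1 of FAP41BBL were far above the others, all FAP41BBL libraries lay above control, and all RT_FAP41BBL libraries lay below the other 9. Hspa1b had 47.4, 10.9 and 10.1 CPM in RT, 46.6, 20.7 and 22.8 in FAP41BBL, 9.25, 9.46 and 11.4 in RT_FAP41BBL and 8.28, 15.5 and 13.98 in control. The same 2 libraries were high, and FAP41BBL again lay above control without overlap. Neither gene passed the test in any comparison. In RT against control their log2 changes were 1.08 ± 0.72 and 0.85 ± 0.59, and without RT replicate 1 they were -0.40 and -0.26. Hspa1a and Hspa1b share 47.1% and 49.9% of the 100-base stretches of their transcripts. A read within such a stretch fits both genes, so the single values are uncertain. Hspb1 was highest in the same RT library, with 154, 88.4 and 80.1 CPM in RT, 96.3, 62.1 and 72.0 in FAP41BBL, 57.2, 66.1 and 58.2 in RT_FAP41BBL and 77.4, 79.8 and 60.1 in control. Its change of 0.57 ± 0.24 in RT against control did not pass (adjusted p = 0.158).

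**Figure D3:**
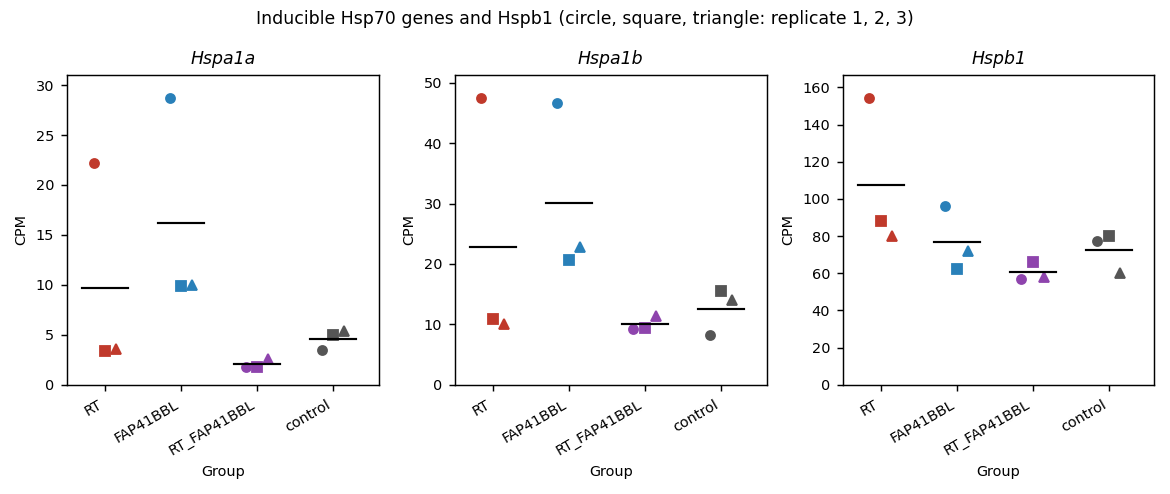
CPM of Hspa1a, Hspa1b and Hspb1 in each library, by group, with a line at the group mean and circles, squares and triangles for replicates 1, 2 and 3. Hspa1a reached 22.2 CPM in RT replicate 1 and 28.7 in FAP41BBL replicate 1, against 3.40 to 3.56 and 9.86 to 9.98 CPM in the other libraries of those groups.

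None of the 4 Hsp90 genes passed in RT against control, and 1 fell in RT_FAP41BBL against RT. Hsp90aa1, the stress-inducible cytosolic Hsp90, had 1019, 1333 and 937 CPM in RT, 999.9, 818 and 750.5 in FAP41BBL, 736, 725 and 749 in RT_FAP41BBL and 886, 733 and 691 in control. RT was above control and above RT_FAP41BBL without overlap, and FAP41BBL replicate 1 lay within the RT range. Its log2 change was 0.51 ± 0.15 in RT against control (adjusted p = 0.0558) and -0.57 ± 0.15 in RT_FAP41BBL against RT (adjusted p = 0.0483). Hsp90ab1, Hsp90b1 and the mitochondrial Trap1 had log2 changes of 0.15 to 0.17 in RT against control and -0.44 to -0.20 in RT_FAP41BBL against RT. The chaperonin genes of the mitochondrial matrix passed in neither. Hspd1, the Hsp60 that folds imported proteins, had 677, 983 and 718 CPM in RT, 728, 586 and 565 in FAP41BBL, 542, 534 and 534 in RT_FAP41BBL and 687, 535 and 502 in control. RT overlapped control through control replicate 1 and did not overlap RT_FAP41BBL. Its log2 change was 0.46 ± 0.16 in RT against control and -0.56 ± 0.16 in RT_FAP41BBL against RT (adjusted p = 0.0971 and 0.0611).

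Differences were steep among the small heat shock genes, with 3 of 6 higher in RT against control and 3 lower in RT_FAP41BBL against RT. Their summed level was 506 to 629 CPM in RT, 213 to 299 in FAP41BBL, 240.1 to 311 in RT_FAP41BBL and 210.0 to 282 in control. Hspb6, or Hsp20, abundant in muscle (ENSMUSG00000036854.15, GRCm39 chr7:30251603-30254868), had 63.5, 52.8 and 80.2 CPM in RT, 21.1, 17.5 and 30.4 in FAP41BBL, 20.5, 22.6 and 20.2 in RT_FAP41BBL and 20.4, 23.2 and 17.4 in control. The RT libraries lay apart from the other 9, of which FAP41BBL replicate 3 was the highest. Its log2 change was 1.69 ± 0.20 in RT against control (adjusted p = 0.00100) and -1.64 ± 0.20 in RT_FAP41BBL against RT (adjusted p = 0.00338).

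Cryab, alpha-B crystallin, a chaperone of lens and striated muscle (ENSMUSG00000032060.11, GRCm39 chr9:50662625-50667936), had 183, 138 and 137 CPM in RT, 67.7, 45.9 and 58.3 in FAP41BBL, 65.6, 83.6 and 55.2 in RT_FAP41BBL and 73.4, 63.4 and 47.1 in control. Again all RT libraries were above the other 9, and the other 3 groups overlapped. Its log2 change was 1.32 ± 0.20 in RT against control (adjusted p = 0.00318) and -1.16 ± 0.20 in RT_FAP41BBL against RT (adjusted p = 0.0112). Hspb8, which works with Bag3 to send misfolded proteins to autophagy, had 149.9, 145 and 131 CPM in RT, 95.8, 76.6 and 78.2 in FAP41BBL, 97.6, 106 and 85.1 in RT_FAP41BBL and 81.9, 86.8 and 75.2 in control. RT stood apart, and RT_FAP41BBL overlapped control. Its log2 change was 0.80 ± 0.12 in RT against control (adjusted p = 0.00189) and -0.56 ± 0.11 in RT_FAP41BBL against RT (adjusted p = 0.0185).

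Hspb7, a small heat shock gene of heart and skeletal muscle, had 62.1, 71.9 and 74.4 CPM in RT, 7.17, 2.72 and 8.70 in FAP41BBL, 22.4, 24.5 and 13.5 in RT_FAP41BBL and 17.2, 10.8 and 0.577 in control. RT lay above all other libraries, but control alone spanned 0.577 to 17.2 CPM, and the log2 change of 2.87 ± 0.84 did not pass (adjusted p = 0.0689). Hspb2, which neighbours Cryab, was at 7.88 to 15.5 CPM in all libraries and passed in no comparison.

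The RT libraries were also the highest in muscle markers. All 21 markers had a log2 change above 0 in RT against control, with a median of 4.47 and 12 past the test, and all 21 lay below 0 in RT_FAP41BBL against RT, with a median of -3.61 and 1 past the test. Over all genes 6.57% were called higher in the first comparison and 2.4% lower in the second. The muscle score, the mean log2 CPM of the list, was 7.54, 7.38 and 8.54 in RT, 3.14, 1.14 and 5.49 in FAP41BBL, 4.34, 4.57 and 3.53 in RT_FAP41BBL and 3.75, 3.76 and 0.58 in control. The RT range did not overlap that of any other group. Radiotherapy in RT against control, and the agent in RT_FAP41BBL against RT, therefore cannot be told apart from muscle content. The RT_FAP41BBL tumours, also irradiated, had scores of 3.53 to 4.57. In RT_FAP41BBL against control the median log2 change of the family was -0.061, with no call. By summed level the 12 adipocyte markers also stood apart between RT and control, at 241 to 626 CPM in RT and 112 to 219.9 in control. Their mean log2 CPM overlapped, at 2.59 to 4.44 in RT and 0.69 to 2.99 in control, and none passed in RT against control. The sum was likewise above control in FAP41BBL, at 336 to 627 CPM, and in RT_FAP41BBL, at 250.4 to 710.3. Lens and nerve markers summed to 287 to 328 CPM in RT and 436 to 559.9 in control. Their mean log2 CPM overlapped, at 0.88 to 1.63 in RT and 0.49 to 1.34 in control. Of the 6 tested 1 fell, against 3.05% of all genes. The part of these lists in the rise of the family was not tested.

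Outside RT, the library with the most muscle RNA was FAP41BBL replicate 3. At 2336 CPM of summed muscle markers, against 6749 to 15140 in RT, it cannot show levels at the muscle content of RT. Its Hspb6 was 30.4 CPM, above the other libraries outside RT. Its Hspb7 was 8.70, its Cryab 58.3, its Clu 23.1 and its Hsph1 103 CPM, all within the range of those libraries. The RT scores overlapped those of no other group, so a fit with the score as a covariate cannot separate treatment from muscle content. Its signs and values are given as description only. In that fit no gene of the family passed in RT against control, and the SEs grew. Hsph1 then had a log2 change of 1.11 ± 0.31 and Stip1 of 0.48 ± 0.20, close to their values without it, while Hspb6 had 0.84 ± 0.22, Cryab 0.75 ± 0.32, Clu 1.23 ± 0.32 and Hspb7 -0.07 ± 0.91. Of the 41 genes, 39 had the same sign as without the covariate, and the median was 0.369; Hspb7 and Hspa2 turned to below 0. In RT_FAP41BBL against RT no gene of the family passed with the covariate either, with a median of -0.44 and 39 of 41 signs kept. Over all genes that fit called 1 gene in RT against control and 0 in RT_FAP41BBL against RT.

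**Figure D4:**
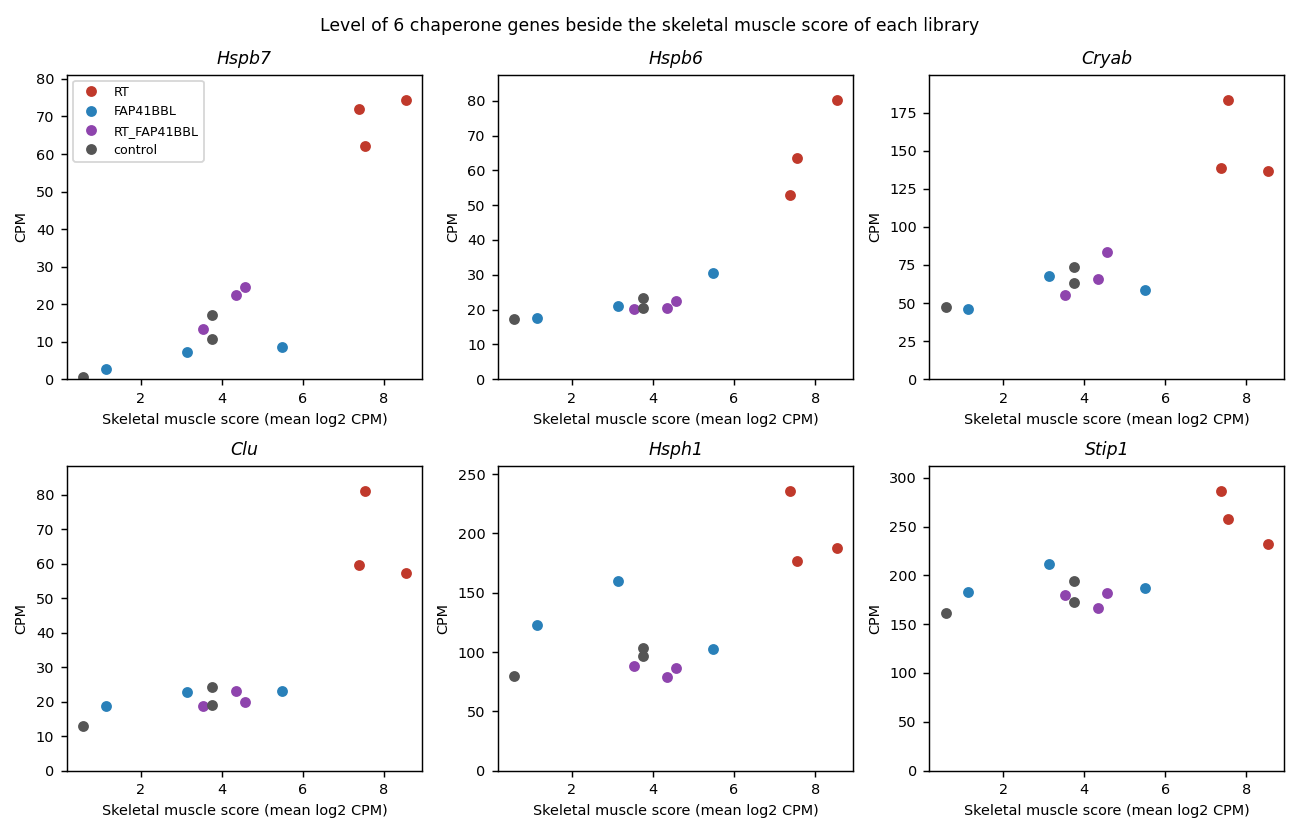
CPM of 6 chaperone genes (vertical axes) against the skeletal muscle score, the mean log2 CPM of 21 markers (horizontal axes), for 12 libraries coloured by group. The RT libraries, at scores of 7.38 to 8.54, sit to the right of all others, and FAP41BBL replicate 3, at 5.49, comes next.

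Clusterin, a secreted chaperone that binds misfolded proteins outside cells (Clu, ENSMUSG00000022037.16, GRCm39 chr14:66205932-66218996), had 81.0, 59.7 and 57.4 CPM in RT, 22.9, 18.6 and 23.1 in FAP41BBL, 23.1, 19.8 and 18.8 in RT_FAP41BBL and 24.2, 19.1 and 12.8 in control. Every RT library was at least at 57.4 CPM, and the other 9 were at 24.2 or less and overlapped between groups. It had the smallest adjusted p of the family in RT against control, with a log2 change of 1.82 ± 0.21 (adjusted p = 0.000800), and fell in RT_FAP41BBL against RT by 1.68 ± 0.21 on the log2 scale (adjusted p = 0.00341).

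**Figure D5:**
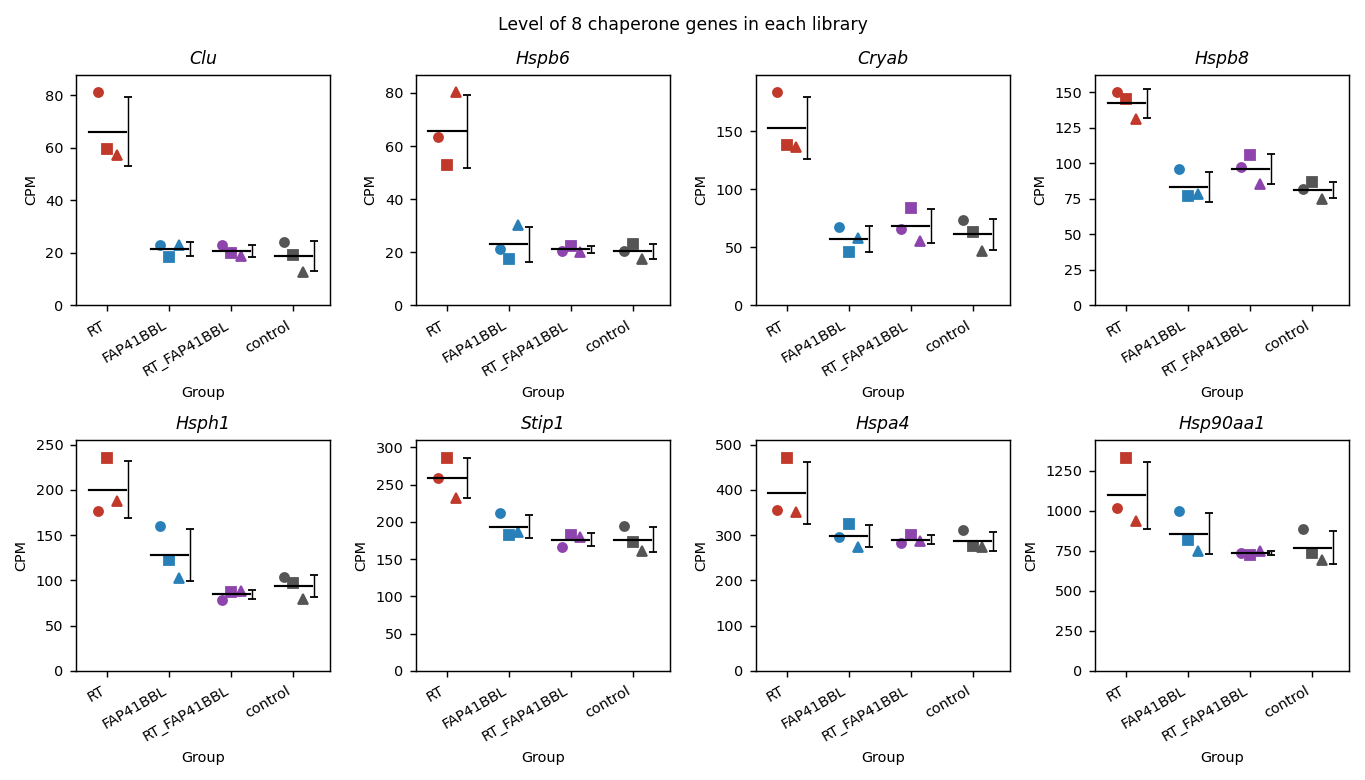
CPM of 8 chaperone genes in each library, by group, with a line at the group mean and a bar of 1 SD (n = 3); circles, squares and triangles are replicates 1, 2 and 3. In Clu, Hspb6, Cryab, Hspb8, Hsph1, Stip1 and Hspa4 all RT points lie above all others, and in Hsp90aa1 a FAP41BBL point reaches into the RT range.

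Of the 7 J-domain genes, whose products bring substrates to Hsp70, 3 rose in RT against control and 2 fell in RT_FAP41BBL against RT. Dnaja1 had 275, 304 and 242 CPM in RT, 253, 224 and 167 in FAP41BBL, 188, 193 and 176 in RT_FAP41BBL and 211, 188 and 163 in control. RT was above control and RT_FAP41BBL without overlap but not above FAP41BBL replicate 1, and the log2 change was 0.55 ± 0.15 in RT against control (adjusted p = 0.0378) and -0.56 ± 0.15 in RT_FAP41BBL against RT (adjusted p = 0.0467). Dnaja2 had 147, 158 and 130.4 CPM in RT, 114, 121 and 111 in FAP41BBL, 115, 121 and 113 in RT_FAP41BBL and 113, 105 and 108 in control. All RT libraries were above the other 9 by a small margin, with a change of 0.42 ± 0.09 in RT against control (adjusted p = 0.0122) and -0.32 ± 0.09 in RT_FAP41BBL against RT (adjusted p = 0.0546). Dnajb4 had 77.8, 71.0 and 57.6 CPM in RT, 61.2, 59.5 and 46.3 in FAP41BBL, 52.5, 47.7 and 40.1 in RT_FAP41BBL and 46.3, 53.3 and 45.0 in control. Here RT overlapped FAP41BBL only, and the change was 0.51 ± 0.14 in RT against control (adjusted p = 0.0439) and -0.56 ± 0.14 in RT_FAP41BBL against RT (adjusted p = 0.0440). Dnajb1, the main J-domain partner of inducible Hsp70, had a change of 0.33 ± 0.11 in RT against control that did not pass (adjusted p = 0.0928), and Dnajb2, Dnajb6 and Dnajb9 had 0.05 to 0.27.

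Among the 8 cochaperones 2 rose in RT against control and 3 fell in RT_FAP41BBL against RT. Stip1, or Hop, which links Hsp70 to Hsp90, had 258, 286 and 233 CPM in RT, 212, 182 and 187 in FAP41BBL, 166, 182 and 179.9 in RT_FAP41BBL and 194, 173 and 161 in control. All RT libraries lay above the other 9, and the change was 0.56 ± 0.11 in RT against control (adjusted p = 0.00749) and -0.56 ± 0.11 in RT_FAP41BBL against RT (adjusted p = 0.0150). Ahsa1, the activator of the Hsp90 ATPase, had 162, 154 and 143 CPM in RT, 143, 117 and 111 in FAP41BBL, 107, 129 and 121 in RT_FAP41BBL and 116, 109.9 and 103 in control. RT overlapped FAP41BBL replicate 1 only, and the change was 0.48 ± 0.11 in RT against control (adjusted p = 0.0180) and -0.36 ± 0.11 in RT_FAP41BBL against RT (adjusted p = 0.0759).

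Ptges3, the Hsp90 cochaperone p23, had 272, 333 and 240.0 CPM in RT, 255, 233 and 183 in FAP41BBL, 193, 193 and 189.6 in RT_FAP41BBL and 235, 189 and 183 in control. RT and RT_FAP41BBL did not overlap, and its change of 0.48 ± 0.15 did not pass in RT against control (adjusted p = 0.0656) while -0.56 ± 0.15 passed in RT_FAP41BBL against RT (adjusted p = 0.0483). Bag3, an exchange factor of Hsp70 and partner of Hspb8, had 88.7, 89.6 and 81.3 CPM in RT, 82.5, 72.4 and 77.0 in FAP41BBL, 64.0, 67.3 and 65.1 in RT_FAP41BBL and 74.3, 79.7 and 69.6 in control. The RT_FAP41BBL libraries were the lowest of the 12, and the change was 0.22 ± 0.09 in RT against control (adjusted p = 0.141) and -0.40 ± 0.09 in RT_FAP41BBL against RT (adjusted p = 0.0218). Chordc1, St13, Fkbp4 and Cacybp passed in neither comparison, with 0.17 to 0.51 in RT against control and -0.53 to -0.39 in RT_FAP41BBL against RT.

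For the gene of the regulator itself the fitted changes were small. Hsf1 had 75.5, 75.4 and 71.8 CPM in RT, 67.3, 63.7 and 64.3 in FAP41BBL, 58.3, 69.2 and 60.6 in RT_FAP41BBL and 66.9, 66.0 and 67.9 in control. The RT libraries were above the other 9, with differences of 0.15 ± 0.08 in RT against control (adjusted p = 0.296) and -0.24 ± 0.08 in RT_FAP41BBL against RT (adjusted p = 0.100). Hsf1 is controlled mainly at the protein level, which was not measured. Hsf2 had larger fitted changes, of 0.35 in RT against control, -0.30 in RT_FAP41BBL against RT and -0.51 in the interaction, none past the test.

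FAP41BBL against control asked what the agent did alone. No gene of the family passed, and over all genes 0.0% were called higher and 0.00563% lower. The median log2 change was 0.084, 2 genes had an unadjusted p under 0.05, and DESeq2 called 0. The largest changes were those of Hspa1a, at 1.81 ± 0.73, and Hspa1b, at 1.25 ± 0.59 (adjusted p = 0.939 and 0.991). Hsph1 came to 0.46 ± 0.16 (adjusted p = 0.872).

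RT_FAP41BBL against control gave no call in the family either, in a comparison where 5.59% of all genes were called higher and 2.31% lower. The median was -0.061, 3 genes had an unadjusted p under 0.05, and DESeq2 called 1, Dnajb2, as lower. Hsph1 had -0.15 ± 0.16, Clu 0.14 ± 0.21, Hspb6 0.05 ± 0.20 and Stip1 0.00 ± 0.11. In RT_FAP41BBL against FAP41BBL, where 0.822% of all genes were called higher and 0.124% lower, none of the 41 passed. The median was -0.169, 6 had an unadjusted p under 0.05, and DESeq2, which gave no p for Hspa1a, called 1, Hsph1, as lower. The largest changes were those of Hspa1a, at -2.97 ± 0.77, Hspb7, at 1.70 ± 0.83, and Hspa1b, at -1.58 ± 0.60 (adjusted p = 0.111, 0.419 and 0.274).

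The interaction tests whether the change with radiotherapy differs between tumours given the agent and tumours not given it. It was lower for 3 of 41 genes and higher for none, against 0.124% and 0.0282% of all genes. These were Hsph1 at -1.70 ± 0.23, Hspb6 at -1.81 ± 0.28 and Clu at -1.89 ± 0.29 (adjusted p = 0.0307, 0.0311 and 0.0311 by edgeR's quasi-likelihood test). The median over the family was -0.494, and 29 genes had an unadjusted p under 0.05. Stip1, at -0.69 ± 0.15, did not pass (adjusted p = 0.0882). The fitted values of Hspa1a and Hspa1b were larger, at -4.04 and -2.44, and did not pass either. This contrast holds all 12 libraries, the RT libraries of the comparisons above among them.

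Other genes of protein folding were taken from lists of related machines. Over all genes, 6.57% were called higher and 3.05% lower in RT against control. A single call does not set a list this short apart from that share. In RT against control 1 of 8 genes of the TRiC chaperonin, which folds actin and tubulin, rose (Cct3, 0.39 ± 0.11), and 0 of 6 genes of its partner prefoldin. In the endoplasmic reticulum and unfolded protein response list 6 of 24 rose and none fell. Among them were the stress transcription factors Ddit3 (0.96 ± 0.19) and Atf4 (0.52 ± 0.11) and the pseudokinase Trib3 (0.89 ± 0.16). Of 15 further J-domain genes tested 5 rose, with Dnaja4 the steepest at 1.69 ± 0.28 (adjusted p = 0.00422) and the mitochondrial Dnaja3 at 0.43 ± 0.08. None of 22 further cochaperones passed. Of 12 further targets of heat shock factor and oxidative stress tested 2 rose, Zfand2a (0.55 ± 0.10) and the sulfiredoxin Srxn1 (0.34 ± 0.09), and of 9 mitochondrial protease and stress genes the transcription factor Atf5 rose (0.77 ± 0.11).

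In RT_FAP41BBL against RT, 3 of the 15 further J-domain genes fell, Dnaja4 (-1.11 ± 0.28), Dnaja3 (-0.32 ± 0.08) and Dnajc21 (-0.51 ± 0.10), and 1 of 22 cochaperones, Bag2 (-0.51 ± 0.13). Rgs2, a regulator of G protein signalling listed as a stress target, rose (1.05 ± 0.19). Over all genes 2.4% were called lower and 3.36% higher, so a single call does not set a list apart. None of the 24 genes of the unfolded protein response passed. In RT_FAP41BBL against control, the family having no call, Ddit3 (0.80 ± 0.19), Zfand2a (0.59 ± 0.10), Rgs2 (1.07 ± 0.19) and Atf5 (0.39 ± 0.11) rose. There 5.59% of all genes were called higher. Immediate early genes, which handling and stress also raise, were 8 of 14 higher in RT against control, against 6.57% of all genes. Their summed level was 809.5 to 1092 CPM in RT, 776 to 843 in FAP41BBL, 821.5 to 1015 in RT_FAP41BBL and 582 to 693 in control. Their part in the rise of the family was not tested.

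Leaving out 1 library at a time, 6 of the 11 genes that rose in RT against control passed in every such fit: Clu, Cryab, Hspb6, Hspb8, Hsph1 and Stip1. Of the 11 that fell in RT_FAP41BBL against RT it was Clu, Hspb6 and Hsph1, and of the 3 interaction genes none, with the count at 0 without any 1 of the RT_FAP41BBL libraries or without control replicate 2. Over all genes, 0 were lower in the interaction in each of the first 3 of these fits and 1 in the last, against 22 with every library. Without RT replicate 2, the library highest in 21 of the 41 genes, the number of rises was 7, and without control replicate 2 it was 6. Over all genes the higher calls in these fits were 855 and 569, against 1167 with every library. The number of falls in RT_FAP41BBL against RT was 5, 4 and 24 without RT replicates 1, 2 and 3, and 4, 5 and 3 without RT_FAP41BBL replicates 1, 2 and 3. Over all genes the number called lower in those fits was 216, 183 and 1031, and 145, 95 and 45, against 426 with every library.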

How the data were processed

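RNA of 12 tumour libraries was sequenced as stranded mRNA read pairs, per the labels' protocols. The deposited files hold unnormalized gene counts. The authors made them with featureCounts 1.6.0 over exons by gene, reverse strand, fragments counted, on GRCm39 with GENCODE M33, per the file headers. Per the submitters' processing notes, FastQC 0.11.8, STAR 2.7.9a, limma and edgeR were used. Library totals were 34076477 to 42067481 counts, and no 2 libraries of a group were copies (chi-square per degree of freedom at least 19.6). Groups and replicate numbers came from the labels. Symbols came from GENCODE M21 by gene identifier and named 51948 of 56884 genes (91.3%).

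The analysis used edgeR 4.0.16 in R 4.3.3: filterByExpr (17757 genes kept), TMM scaling (factors 0.961 to 1.031), 1 model with 4 groups, the robust quasi-likelihood test with 8 residual degrees of freedom (biological coefficient of variation 0.205), and Benjamini-Hochberg adjustment over all genes at 0.05. All adjusted p-values are from this test. DESeq2 gave no p for Hspa1a. Marker scores are mean log2 CPM with a prior count of 2. The steps were tested on simulated counts. Alternatives were DESeq2 1.42.0, limma-voom 3.58.1, RLE factors, library totals, all genes without a filter, the replicate number as a block, the muscle score as a covariate, fits of the compared groups alone, fits without each library, and a heat shock element of 2 facing units. Promoter sequences are RefSeq windows of GRCm38.p6 and gene coordinates are those of the files, so the builds differ.

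The 41 genes and all lists were chosen with earlier results of these data known. By the rule for named genes, values in every library are given for genes past the test in any comparison and for Hspa1a, Hspa1b, Hsf1, Hspa5, Hspa8, Hsp90aa1, Hspd1, Cryab and Clu, and up to 3 genes a list with the smallest p in each comparison are named. Hspb1, Hspb7, Krt8 and Epcam were added after their values were seen.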

Additional observations from a re-analysis of the deposited data

Results flagged for a closer look

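The change with radiotherapy differed between tumours given muFAP-4-1BBL and tumours not given it for 3 genes of the family, by the interaction term of edgeR's quasi-likelihood test. The difference of log2 changes was -1.7 for Hsph1, -1.81 for Hspb6 and -1.89 for Clu. With each library left out in turn the call was lost in 5 of 12 fits for Hsph1, in 8 for Hspb6 and in 8 for Clu, while the sign stayed negative. With the replicate number as a block the call of Hspb6 was lost (-1.76, adjusted p = 0.0740), and Hsph1 and Clu passed. With the muscle score as a covariate the values were -1.71, -1.07 and -1.40, and none passed (adjusted p = 0.203, 0.268 and 0.291).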

How the results depend on the processing

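In RT against control the 11 calls became 18 with DESeq2, 7 with only the compared groups in the fit and 0 with the muscle score as a covariate, and ranged from 6 to 14 with a library left out. Over all genes the 1167 higher calls became 1576, 837 and 1, and 569 to 1185 with a library left out. In RT_FAP41BBL against RT the 11 calls became 7 with library totals, 25 with DESeq2 and 0 with the muscle score, and ranged from 3 to 24 with a library left out. Over all genes the 426 lower calls became 363, 943 and 0, and 45 to 1031 with a library left out. The 3 interaction calls became 14 with DESeq2 and 0 with the muscle score, and ranged from 0 to 4 with a library left out. Over all genes the 22 lower calls became 410 and 0, and 0 to 92 with a library left out. With no call in RT_FAP41BBL against control, DESeq2 gave 1 and the compared groups alone 2, and in RT_FAP41BBL against FAP41BBL DESeq2 gave 1. These calls were lower, and over all genes the 411 lower calls became 890 and 1422, and the 22 became 205. FAP41BBL against control gave 0 under every alternative run. A heat shock element of 2 facing units was in 14 of the 31 genes of the family with a window (45.2%), against 17.0% of all genes, where the element of 3 units was in 16.1% and 0.662%.

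The direction turned in RT against control without RT replicate 1 for Hspa1a (-0.403, against 1.472 at most with another library left out) and Hspa1b (-0.264, against 1.195 at most), and with the muscle score for Hspb7 (-0.067, and 0.637 in RT_FAP41BBL against RT and 1.232 in the interaction). With that score 2 genes near 0 turned too, Hspa2 in RT against control (0.07 without it, -0.11 with it) and in the interaction (-0.09 and 0.07), and Hspa4l in RT_FAP41BBL against RT (0.01 and -0.13) and in the interaction (0.04 and -0.12). Hspa1a and Hspa1b were high in RT replicate 1 alone of that group. For the other changes the cause was not tested.

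The replicate number as a block gave 16 calls in RT against control, 19 in RT_FAP41BBL against RT, 2 in the interaction, where Hspb6 dropped out, and 1 in RT_FAP41BBL against control. Over all genes the calls in the same direction were then 1128, 465, 7 and 473, against 1167, 426, 22 and 411 without the block. Between the groups of each pairwise comparison the numbers gave no clear pairing of the libraries, though 3 libraries a group cannot exclude one. Deviations of same-numbered libraries correlated at -0.34 to 0.388, with at least 1 of 3 pairs under 0.1 each time. At most 2 of 6 libraries correlated best with their own number. RT and FAP41BBL, which meet only in the interaction, correlated at 0.172 to 0.435 in all 3 pairs, so the interaction is given with and without the block.

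The lowest level of a gene of the family in any library was 0.577 CPM (Hspb7, control replicate 3), where counting error weighs most.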
